A study of Arabidopsis thaliana with 4 samples.

Results

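The leaf shape, polarity and organ growth regulators NGA2, JAG, AN, TCP15, PHV, YAB3, YAB5 and LAS were compared between control and jaw-D shoots of Arabidopsis thaliana. They were taken by gene name from the array annotation, with earlier results of these data known. Each had a single probe set, and together they make up 8 of the 13350 genes that could be named on an array of 22810 probe sets. The control group was the accession Columbia and the other group was jaw-d, an activation-tagged line, written jaw-D here. Plants of both groups were 2 weeks old, and total RNA came from their above-ground organs, with 2 arrays per group and no treatment named. The line is dominant: enhancers carried by the inserted tag, and not a promoter specific to leaves, raise the microRNA miR319a. It is a single line, and the labels do not say whether plants were pooled or whether the 2 samples of a group were grown separately, so the p-values rest on a spread between samples that may be technical.

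A leaf starts as a bulge on the flank of the shoot meristem, separated from it by a boundary of slowly dividing cells. An upper (adaxial) and a lower (abaxial) side are then specified, the blade grows out where the sides meet, and cells leave division from the tip towards the base. TCP transcription factors of the CINCINNATA type, which miR319 represses, promote that exit from division, and the blades of jaw-D plants are crinkled at their margins. The 8 genes act at different points of this sequence: LAS at the boundary, PHV on the upper and the YABBY genes YAB3 and YAB5 on the lower side, and JAG, TCP15, NGA2 and AN in the growth of the blade. None of the 5 TCP genes that miR319 targets was measured under its own name, so the comparison covers other regulators of the leaf and not those targets.

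Values are normalised intensities in array units, on which probe sets of different genes cannot be ranked against each other. Differences are jaw-D minus control on the log2(intensity + pseudocount) scale, with a pseudocount of 302.3 units, and understate the change of dim genes. Tests are two-sided limma tests over 22746 probe sets with Benjamini-Hochberg adjustment and a threshold of 0.05. As a mark of background, the 27 probe sets for transcripts of the bacterium Bacillus subtilis reached at most 352.6 deposited units, on control array 1, and at most 234.6 on the others; the background mark below is the higher value, used for all arrays.

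NGA2 fell, and it was the 1 gene of the 8 that passed the test. The intensities of JAG, AN and TCP15 were higher on both jaw-D arrays than on both control arrays without passing, and those of PHV, YAB3, YAB5 and LAS differed less. Over all probe sets 4.19% passed, 1.64% as higher and 2.54% as lower in jaw-D, and with so few genes a single call is not a result about the group. The intensities of the groups did not overlap for 7 of the 8 genes, 4 higher and 3 lower in jaw-D, against 49.0% of all probe sets, 25.5% higher and 23.6% lower. At an unadjusted p under 0.05 there were 4 of 8, NGA2, AN, TCP15 and JAG, against 19.9% of all probe sets. The genes were chosen with earlier results of these data known, so these counts do not test them as a group. The median log2 difference of the 8 genes was 0.09, beside 0.01 over all probe sets tested. All 8 genes lay above the background mark on average, while the shares over all probe sets include dimmer ones.

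**Figure D1:**
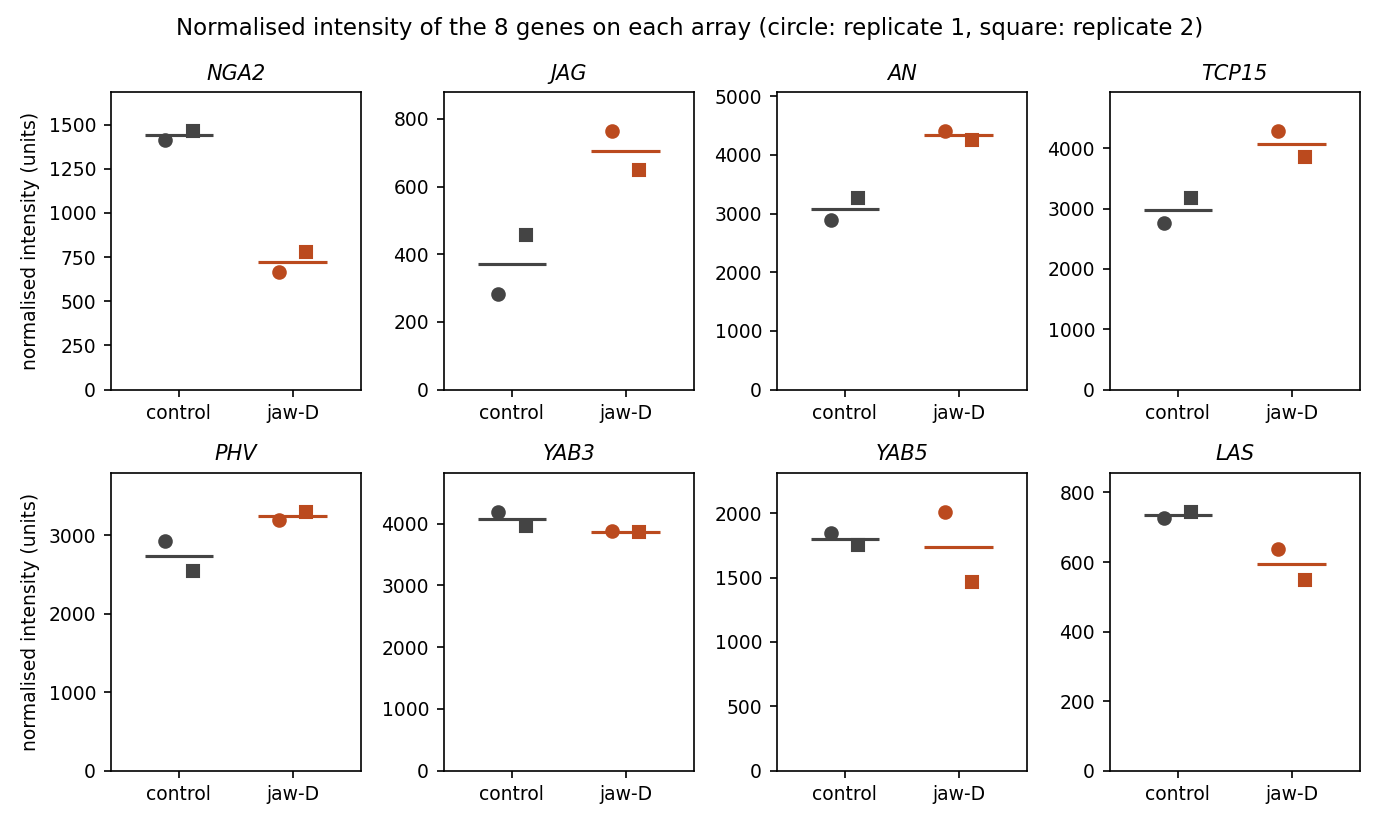
Normalised intensity (vertical axis, array units from 0) of each gene on the 2 control and 2 jaw-D arrays; points are arrays and lines are group means. NGA2 lies at 1415 and 1465 units in control and at 667 and 776 in jaw-D, and in the YAB5 panel alone do the groups overlap.

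NGA2 (AT3G61970) encodes a B3-domain transcription factor of the NGATHA family, whose members act redundantly to restrain lateral organ growth and to form the style of the pistil. Its intensity was 1415 and 1465 units on the control arrays and 667 and 776 units on the jaw-D arrays. Both jaw-D values lay far below both control values, with a gap of 0.67 on the log2 scale between the groups and at most 0.15 between arrays of 1 group. The mean went from 1440 ± 35.1 to 722 ± 77.1 units (SD, n = 2 each), a ratio of jaw-D to control of 0.501. The log2 difference was -0.77 ± 0.13 (SE), with a 95% interval of -1.09 to -0.44 and a limma adjusted p of 0.0399. A larger difference in size was found for 1.45% of all probe sets. Without the mean-variance trend the limma adjusted p was 0.0716. In that setting 14 probe sets passed as higher and 51 as lower, against 374 and 578 in the reported fit. With any 1 array left out the difference was -0.83 to -0.69, and at 4 times the pseudocount it was -0.46 (limma adjusted p 0.0452).

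The other NGATHA genes were read beside NGA2, from a list of 7 genes of which 5 were measured. NGA1 was at 1081 and 1052 units in control and 982 and 638 in jaw-D. Its groups did not overlap, but jaw-D array 1 lay near the controls and jaw-D array 2 well below them. The log2 difference of NGA1 was -0.32 (95% interval -0.77 to 0.14, adjusted p 0.424), and -0.09 without jaw-D array 2 and -0.54 without jaw-D array 1.

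NGA4 was at 429 and 509 units in control and 376 and 412 in jaw-D, a log2 difference of -0.15 (adjusted p 0.641) at a level not far above background. NGA3 was under the background mark in deposited units on every array, although its 320.6 units on control array 2 exceeded the 194.2 that the bacterial probe sets reached there. Its normalised value was 356 units on that array, against 38.0 on control array 1 and 104 and 40.7 in jaw-D. Its sign followed control array 2: the difference was -0.34 with it and 0.14 without it. AT3G11580, entered in the list as a NGATHA-like gene but carrying no symbol in the reference table, was at 730 and 823 units in control and 793 and 686 in jaw-D (-0.05, adjusted p 0.905, and 0.01 on the values as deposited).

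In this list 1 gene fell, 0 rose and 4 did not pass, and all 5 differences were negative here. That of AT3G11580 was positive as deposited, and that of NGA3, under the background mark, was positive without control array 2. Over all probe sets 2.54% were called lower, and 11057 of 22746 differences were negative. The median was -0.32, beside 0.01 over all probe sets. Whether the change of NGA2 differs from that of NGA1 or NGA4 was not tested.

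**Figure D2:**
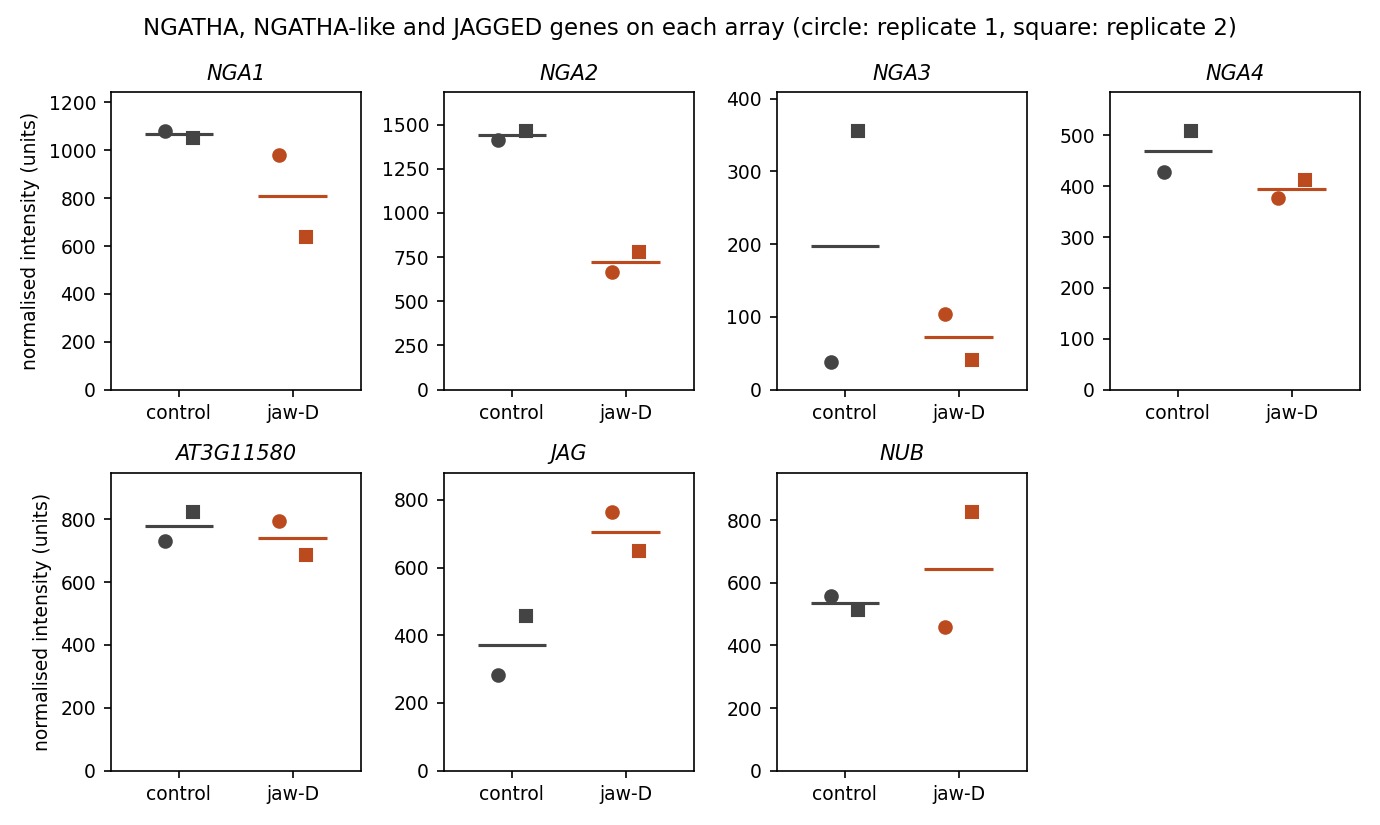
Normalised intensity (array units from 0) of the measured NGATHA, NGATHA-like and JAGGED genes on each array, with lines at the group means. NGA2 separates the groups by the widest gap of these 7 genes, while NGA1 and NUB differ between their 2 jaw-D arrays (982 and 638 units, and 459 and 826 units).

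JAG (AT1G68480) encodes a zinc finger transcription factor that keeps cells of the growing blade and of floral organs dividing. It was at 283 and 458 units in control and at 765 and 648 units in jaw-D. Both jaw-D values were higher, but the control arrays stood 0.38 apart on the log2 scale, more than the 0.32 between the groups, and on control array 1 JAG was under the background mark, at 306.6 deposited units. The mean was 370 ± 124 units in control and 707 ± 82.5 in jaw-D (SD, n = 2 each), a ratio of 1.91. The log2 difference was 0.59 ± 0.18 (SE; 95% interval 0.15 to 1.04, adjusted p 0.144), the largest in size of the 8 genes after NGA2. Of all settings tried, the one that left out dim probe sets brought it past the threshold (limma adjusted p 0.045). In that setting 13.1% of the probe sets tested passed, against 4.19% in the reported fit. The size depended on the pseudocount, at 0.91 at 0.1 times the value and 0.28 at 4 times the value.

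NUB, the close relative of JAG that acts with it in stamens and carpels, was at 558 and 513 units in control and 459 and 826 in jaw-D. The jaw-D arrays lay on either side of the controls, so no direction was measured: the difference was 0.15 (95% interval -0.39 to 0.68, adjusted p 0.786), and -0.14 without jaw-D array 2. Of the 2 JAGGED genes, 0 passed in either direction.

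AN (AT1G01510) encodes ANGUSTIFOLIA, a CtBP-like protein needed for cell expansion across the leaf and for the arrangement of cortical microtubules; leaves of its mutants are narrow. Its intensity was 2887 and 3266 units in control and 4412 and 4261 units in jaw-D. Both jaw-D arrays were higher, and the gap of 0.36 between the groups was wider than the 0.16 between the control and the 0.05 between the jaw-D arrays. The mean was 3076 ± 268 units in control and 4336 ± 107 in jaw-D (SD, n = 2 each), a ratio of 1.41. The log2 difference was 0.46 ± 0.09 (SE; 95% interval 0.23 to 0.69), and the adjusted p of 0.0569 missed the threshold. AN passed in 3 of the 7 alternatives that keep all 4 arrays: on the values as deposited (0.51, adjusted p 0.039), at 0.1 times the pseudocount (0.49, adjusted p 0.0412) and without dim probe sets (adjusted p 0.0154). Each of these settings called more probe sets than the reported fit, with its 374 higher and 578 lower. As deposited there were 486 higher and 645 lower, and at 0.1 times the pseudocount 525 and 738. Without dim probe sets 13.1% of those tested passed. None of the other 5 genes listed for leaf shape and cell expansion was measured under its own name.

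TCP15 (AT1G69690) is a class I TCP transcription factor, of the branch of the family that miR319 does not target, and affects cell division in leaves and stems together with its close relative TCP14. It was at 2768 and 3174 units in control and at 4290 and 3857 units in jaw-D. The values were again higher on both jaw-D arrays, with 0.26 between the groups against 0.18 and 0.14 within them on the log2 scale. The mean was 2971 ± 287 units in control and 4074 ± 306 in jaw-D (SD, n = 2 each), a ratio of 1.37. The log2 difference was 0.42 ± 0.10 (SE; 95% interval 0.16 to 0.675, adjusted p 0.0917). TCP15 passed without dim probe sets (limma adjusted p 0.0306), a setting in which 13.1% of those tested passed. The other measured gene of 13 listed as class I TCP, AT2G37000, was at 12.3 to 35.0 units over the 4 arrays, under the background mark, so that 0 of 2 passed in either direction.

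**Figure D3:**
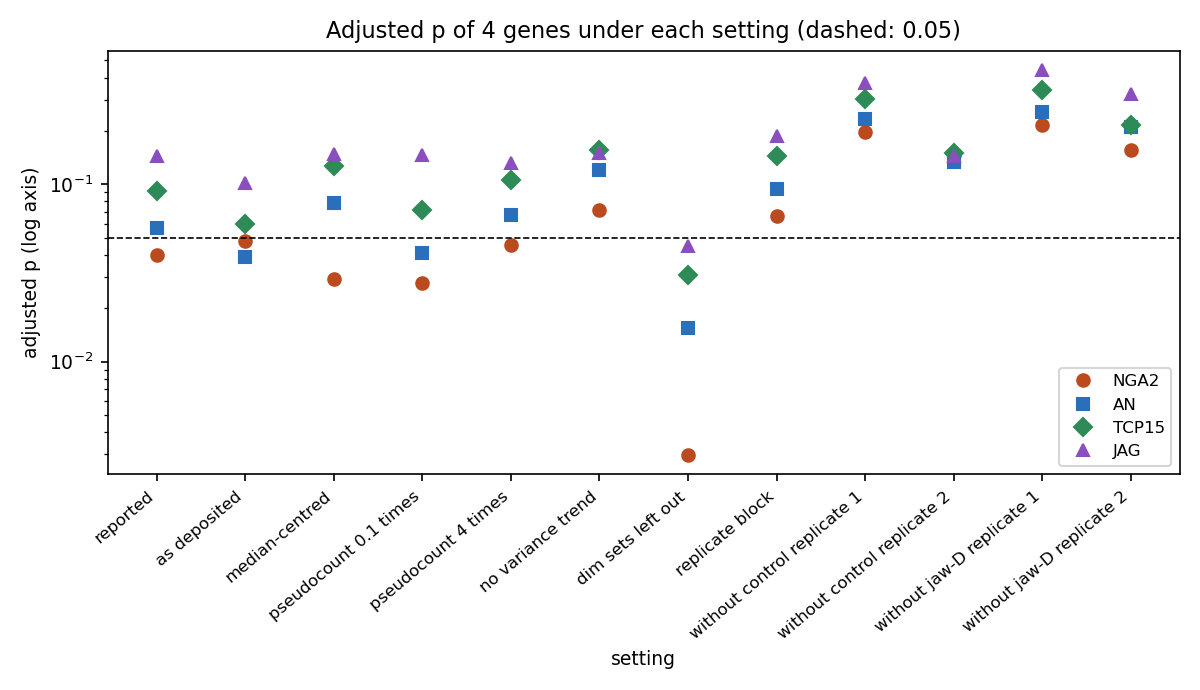
Limma adjusted p (vertical log axis, dashed line at 0.05) of NGA2, AN, TCP15 and JAG in the reported fit and under each of the 11 other settings (horizontal axis). Of all probe sets tested, 4.19% passed in the reported fit and 13.1% without dim probe sets. NGA2 lies under the line in the reported fit (0.0399) and in 5 other settings, and all 4 genes do so without dim probe sets. Without the variance trend 14 probe sets passed as higher and 51 as lower. With 1 array left out a group holds 1 array, so those points do not measure how firm a gene is.

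NGA2, AN and TCP15 were the 3 of 8 genes whose gap between the groups was wider than the gaps between replicates in both groups, against 20.8% of all probe sets. As the genes were chosen with earlier results of these data known, this count is a description.

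**Figure D4:**
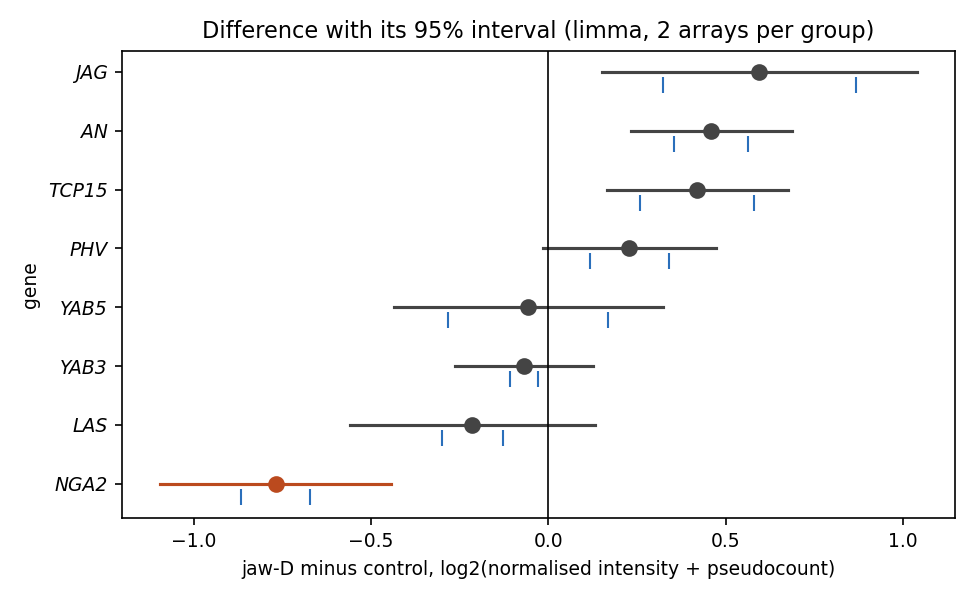
Difference of each gene, jaw-D minus control on the log2 scale, as a point with its 95% limma interval (line); the blue ticks under it are the lowest and the highest of the 4 differences between 1 jaw-D and 1 control array. The intervals of NGA2, JAG, AN and TCP15 do not reach 0, and NGA2 (-0.77) is the gene that passed after adjustment.

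PHV (AT1G30490) is a class III homeodomain-leucine zipper transcription factor that specifies the upper side of the leaf, and its transcript is cleaved under the microRNAs miR165 and miR166. It was at 2922 and 2545 units in control and at 3195 and 3300 units in jaw-D. The jaw-D values were higher on both arrays, but control array 1 lay nearer to them than to control array 2. The mean was 2734 ± 267 units in control and 3247 ± 74.3 in jaw-D (SD, n = 2 each), and the log2 difference of 0.23 had a 95% interval of -0.02 to 0.47 (adjusted p 0.281). Without control array 2 it was 0.14. The 4 other genes of this class were not measured under their own names.

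YAB3 (AT4G00180) and YAB5 (AT2G26580) are YABBY transcription factors of the lower side of the leaf, where they act redundantly with their relative FIL in blade outgrowth. YAB3 was at 4193 and 3962 units in control and at 3876 and 3868 units in jaw-D. Both jaw-D values lay just under the controls, by less than the gap between the control arrays. The log2 difference of -0.07 had a 95% interval of -0.26 to 0.125 (adjusted p 0.712), the narrowest interval of the 8 genes, and was -0.02 on the values as deposited and -0.12 centred on the median.

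YAB5 was at 1849 and 1755 units in control and at 2011 and 1467 units in jaw-D. Its jaw-D arrays lay on either side of the controls, 0.39 apart on the log2 scale, so that it is the gene of the 8 whose groups overlapped. The difference was -0.06 (95% interval -0.44 to 0.32, adjusted p 0.903), and its sign turned on the values as deposited (0.03) and without jaw-D array 2 (0.14). INO, a YABBY gene of the outer integument of the ovule, was at 376 and 377 units in control and at 532 and 469 in jaw-D (0.24, 95% interval -0.09 to 0.57, adjusted p 0.402). On control array 2 INO was under the background mark, at 341.7 deposited units. Of the 14 genes listed for the lower side and leaf polarity, 3 were measured and 0 passed in either direction.

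LAS (AT1G55580) encodes LATERAL SUPPRESSOR, a GRAS-family regulator expressed in the boundary between meristem and leaf primordia, which axillary meristems need in order to form. It was at 726 and 744 units in control and at 638 and 548 units in jaw-D. Both jaw-D values were lower, by a gap of 0.13 between the groups against 0.15 between the jaw-D arrays. The mean was 735 ± 12.8 units in control and 593 ± 64.0 in jaw-D (SD, n = 2 each), and the log2 difference was -0.21 with a 95% interval of -0.56 to 0.13 (adjusted p 0.479). It was -0.14 without jaw-D array 2 and -0.11 at 4 times the pseudocount. The other 9 boundary genes listed were not measured under their own names.

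For PHV, YAB3, YAB5 and LAS the intervals include 0. The interval ran from -0.02 to 0.47 for PHV and from -0.26 to 0.125 for YAB3. That of YAB5 ran from -0.44 to 0.32 and that of LAS from -0.56 to 0.13. With 2 arrays per group, differences within the interval of each gene were not excluded.

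**Figure D5:**
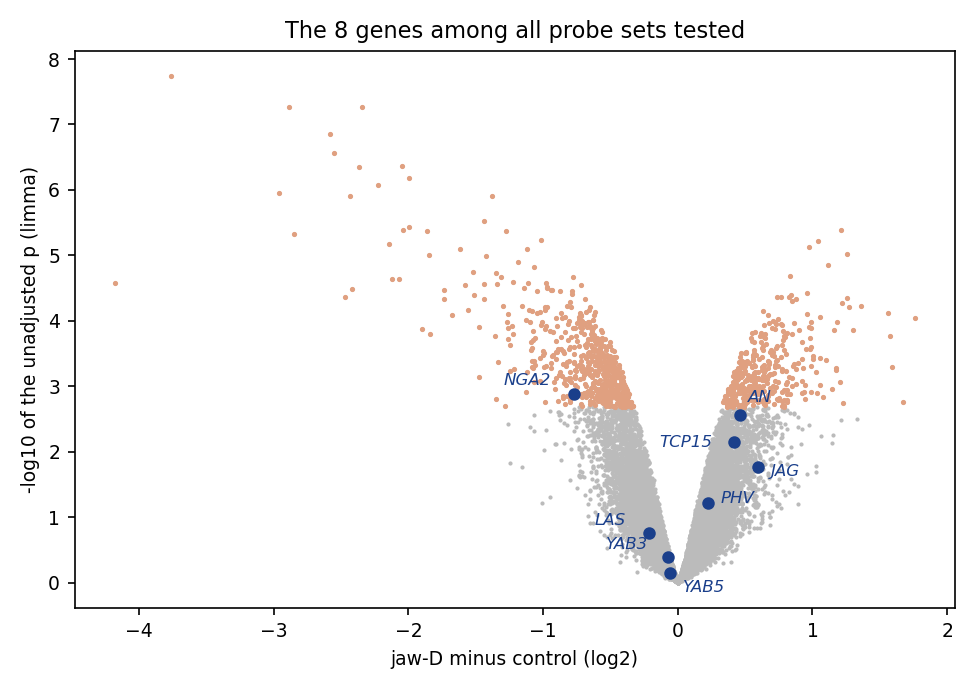
All 22746 probe sets by difference (horizontal axis, log2) and -log10 of the unadjusted limma p (vertical axis); paler red points passed the adjusted threshold and labelled blue points are the 8 genes. NGA2 lies among the lower calls, AN just under the threshold, and YAB3 and YAB5 near the centre.

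Around these genes, the lists of leaf and organ regulators held 91 genes, of which 15 were measured: 1 fell, 0 rose and 14 did not pass. Over all probe sets 4.19% passed. Outside the 8 genes there were 7, with 0 calls in limma and a median log2 difference of -0.05. The lists of GRF growth factors (9 genes), KNOX meristem genes (4), other class II TCP genes (6) and organ size genes (10) had no measured member under its own name.

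The tissue was checked with markers, of which few could be named. The leaf genes RCA, rubisco activase, and LHCB4.1 and LHCB4.2, of the photosystem II antenna, were at 37413 to 81605 units on every array. These 3 of 6 listed leaf markers summed to 192860 and 191200 units in control and to 175520 and 177840 in jaw-D, and 0 passed; LHCB4.2 (log2 difference -0.19, adjusted p 0.177) passed with each array centred on its median (-0.41, adjusted p 0.0375). The root hair expansins EXPA7 and EXPA18, 2 of 6 listed root markers, summed to 868 and 902 units in control and to 467 and 1007 in jaw-D, with 0 calls. Although the RNA came from above-ground organs, EXPA18 lay above the background mark on all 4 arrays, at 391.2 to 612.4 deposited units. EXPA7 did so on 1 array, and the cause was not tested. CLV3, a signal of the meristem's stem cells and the 1 measured of 4 meristem markers, was under the background mark on every array, at 29.7 to 94.6 units. Floral organ and trichome markers were not measured under their own names. In whole shoots, fewer cells of a type and less RNA per cell cannot be told apart, and the part of tissue makeup in the values of the 8 genes was not tested.

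For each of the 8 genes, the 3 nearest of 1579 probe sets with a gene symbol were taken by Euclidean distance between their log2 values over the 4 arrays, each centred on its own mean. With 4 arrays this measure holds little more than the group difference and the gaps between replicates, and all points share normalization, so it is a description. Nearest to NGA2 were UGT84A3 (distance 0.048), a glucosyltransferase gene, PIFI (0.146), a gene for a factor of the chloroplast NDH complex, and JMT (0.152). The log2 differences of UGT84A3 and PIFI were -0.76 and -0.63 (limma adjusted p 0.0395 and 0.0192). Neither passed without the variance trend (limma adjusted p 0.0716 and 0.078), where 14 probe sets in all were called higher and 51 lower. With any 1 array left out, the differences were -0.792 to -0.704 for UGT84A3 and -0.69 to -0.578 for PIFI. UGT84A3 was at 1336 and 1337 units in control and at 634 and 701 in jaw-D, while JMT was at 331 and 265 units in control and at 21.9 and 52.1 in jaw-D. The JMT levels are near or under background, and the size of the JMT difference is set by the pseudocount (-2.32 at 0.1 times and -0.27 at 4 times its value). Nearest to AN were TUB5 (0.038), a beta-tubulin gene, TOPP7 (0.048) and RD2 (0.064). TUB5 was at 12790 and 13817 units in control and at 18783 and 18196 in jaw-D. Its difference of 0.47 (limma adjusted p 0.031) did not pass as deposited (0.375, adjusted p 0.0533) or centred on the median (0.28, adjusted p 0.132). Nor did TUB5 pass without the variance trend (limma adjusted p 0.107), where few probe sets passed. With any 1 array left out its difference was 0.398 to 0.516.

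Nearest to JAG were tny (distance 0.098), ATL8 (0.10) and MT1C (0.127), and nearest to TCP15 were MGL (0.043), BPEp (0.061) and PRH75 (0.071). These 6 genes had differences of 0.39 to 0.69. Nearest to PHV were PUB15 (0.040), TRM31 (0.054) and GLX2-1 (0.062), and nearest to LAS were SAY1 (0.015), PFI (0.039) and CLE44 (0.044). For YAB3 they were FaTA (0.024), ATPMEPCRD (0.035) and ATN1 (0.037), and for YAB5 SWC2 (0.082), SMZ (0.087) and FEY (0.089). None of these last 12 genes passed the test (limma adjusted p 0.327 to 0.981).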

How the data were processed

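Total RNA of 2 control and 2 jaw-D samples was measured on 4 arrays. The deposited values are positive linear intensities, already at a common level: the 2% trimmed mean was 2500 units for each array, with medians of 1032 to 1146. How the authors scaled them is not given in the sources used here, and no detection calls were used. The 64 control probe sets were left out. Because the highest array median exceeded the lowest by 11.0%, over the 10% set as the rule, the 22746 others were quantile normalised. The pseudocount of 302.3 units is the 25th percentile of all deposited values. Tests used limma 3.58.1 in R 4.3.3 (lmFit, eBayes with a mean-variance trend, 2 residual degrees of freedom). The code was also run on simulated arrays, in which the mean level alone set the spread of a probe set. That favours a fit with a trend, so the run cannot show how the test performs on these data. An exact permutation of the 4 arrays cannot go below p = 0.333, so none was used. Precision is limited by the number of arrays.

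Of the probe sets, 13513 had 1 gene, 503 several and 8730 were unnamed here; the reference gene table of assembly TAIR10.1 matched 13436 and was used for names. Probe sets with several genes named none. The genes named are the 8 genes, the measured members of the lists, and the 3 nearest patterns of each of the 8. The genes, lists and tests were chosen with earlier results of these data known. Alternatives changed the normalization, the pseudocount, the variance trend and the filter on dim probe sets, added a replicate block, or left out each array.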

Additional observations from a re-analysis of the deposited data

How the results depend on the processing

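Every difference of NGA2, JAG, AN, TCP15, PHV, YAB3 and LAS kept its sign under all 11 alternatives; YAB5 turned on the values as deposited (0.029) and without jaw-D replicate 2 (0.138). NGA2, at -0.77, no longer passed without the variance trend (-0.769, adjusted p 0.0716) or with the replicate number as a block (replicate block, -0.769, adjusted p 0.0663), and its difference was -0.834 to -0.691 with 1 array left out, where it did not pass either. JAG (0.595), AN (0.459) and TCP15 (0.42) passed without dim probe sets, a setting that tested 16441 probe sets and kept all 8 genes, and in which 13.1% of those tested passed; AN also passed as deposited (0.51) and with 0.1 times the pseudocount (0.494). The cause of these shifts was not tested. With 1 array left out the differences ran from 0.419 to 0.782 for JAG, 0.377 to 0.536 for AN, 0.33 to 0.503 for TCP15, 0.135 to 0.319 for PHV, -0.111 to -0.031 for YAB3, -0.252 to 0.138 for YAB5 and -0.284 to -0.137 for LAS, and none of them passed (limma adjusted p 0.133 to 0.976); the lone array of a group is then taken to vary like the other group. The deviations of same-numbered arrays correlated at -0.02. With 2 arrays per group this cannot show whether the numbers pair the samples, and the labels do not say. A mean over several probe sets of a gene gave no value, as each of the 8 genes had 1.

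Calls numbered 374 higher and 578 lower probe sets for jaw-D. They were 248 and 978 when arrays were centred on their medians (higher calls 20.2% of all calls, against 39.3%), 14 and 51 without the variance trend, 1002 and 1148 without dim probe sets, and 157 and 309 with the replicate block. With 1 array left out, 0 were higher and 0 to 12 lower by limma, and 3347 to 4381 had an unadjusted p under 0.05. Among the other genes named, signs turned for AT3G11580 (0.008) and ATN1 (0.045) as deposited and for AT2G37000 (-0.081) and CLV3 (-0.013) centred on the median. With 1 array left out the differences crossed 0 for NUB (-0.138 to 0.427), NGA3 (-0.81 to 0.137), AT3G11580 (-0.125 to 0.023), AT2G37000 (-0.04 to 0.061), CLV3 (-0.051 to 0.207), RCA (-0.119 to 0.027), EXPA7 (-0.662 to 0.42), SWC2 (-0.153 to 0.183), SMZ (-0.268 to 0.033) and FEY (-0.334 to 0.098).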
